A study of Mus musculus with 2 samples.

Results

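A set of 10 actin cytoskeleton genes known for expression in the testis was followed in RNA-seq of mouse round spermatids, the haploid germ cells formed by meiosis whose heads have not yet elongated. They were chosen by symbol with their FPKM values in both libraries known, and all 10 were found among the 23234 genes of the table: Actl7a, Actl7b, Actl9, Actrt1, Actrt2, Capza3, Fscn3, Pfn3, Pfn4 and Actg2. The comparison was between 1 library labelled Epc-dKO, from C57BL/6 mice deficient for both Epc1 and Epc2, and 1 library from wild-type C57BL/6 mice. Their proteins are subunits of NuA4/TIP60, a complex that acetylates histones. The sources used here do not give the alleles, the cells in which they were deleted, the age of the mice or the number of animals behind each library.

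Levels are FPKM, that is fragments per length of transcript and per total of the library. No difference below could be checked against replicates or given a p-value, since each genotype has 1 library. Each log2 ratio compares FPKM + 1 in the library labelled Epc-dKO with FPKM + 1 in the wild-type library, so changes of low genes are understated. A gene was called higher or lower when this ratio reached 2-fold, and expressed when its mean FPKM over both libraries was 1 or more. The targeted genes did not go down with their label. The FPKM of Epc1 was 13.6 in the library labelled Epc-dKO, against 11.4 in the wild-type library, and that of Epc2 was 10.5 in the library labelled Epc-dKO, against 7.12 in the wild-type library. Exons outside a deleted part also count in these values, which therefore do not check the genotype label. All 11 round spermatid markers in the table were expressed, and none passed 2-fold. Their FPKM ran from 11.5 to 150 in the library labelled Epc-dKO, against 12.5 to 151 in the wild-type library. The sampling depth was approximated from the steps between low FPKM values. One fragment was worth 0.905 times as much FPKM in the library labelled Epc-dKO as in the wild-type library, which corresponds to totals of about 40900000 fragments in the library labelled Epc-dKO and 37000000 in the wild-type library.

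Actin assembles from monomers into filaments, and actin-binding proteins cap, bundle, cut or feed these filaments. Male germ cells use these parts together with divergent actin-related proteins that are made mostly or only after meiosis. Several of them sit in the perinuclear theca and the acroplaxome, the protein layer and plate between the spermatid nucleus and the acrosome, where they help to anchor the acrosome while the sperm head takes its shape.

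The 10 genes did not move as a group. Fscn3 and Actg2 were called higher in the library labelled Epc-dKO, none of the 10 was called lower, and 8 lay within 2-fold. Over all 10438 expressed genes, 2.75% were called higher and 1.88% lower. Since the same values had a part in choosing the 10 genes, nothing is read from their share. Of all called genes 59.4% were higher. On the TPM scale, where both libraries are rescaled to the same larger sum, 15151 genes reach the minimum and 34.1% of called genes were higher. Over the same 10438 genes on that scale it was 38.0%, in an alternative chosen after seeing the data. The 10 genes had 2 calls, both higher, on the TPM scale too, beside 545 higher and 1054 lower of the 15151 genes. Under a 4-fold rule Fscn3 alone was called higher and none lower, beside 0.728% and 0.565% of all expressed genes. At 1.5-fold Actrt2 was also higher and Pfn3 lower, beside 8.02% and 10.8%. The median log2 ratio of the 10 genes was 0.17, with 7 above 0 and 3 below (6 and 4 under 2 of the rescalings, where Actl7a lay just below 0), and that of all expressed genes was -0.05. Their summed FPKM was 411 in the library labelled Epc-dKO and 397 in the wild-type library, which is 0.207% of all FPKM in the library labelled Epc-dKO and 0.205% in the wild-type library.

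**Figure D1:**
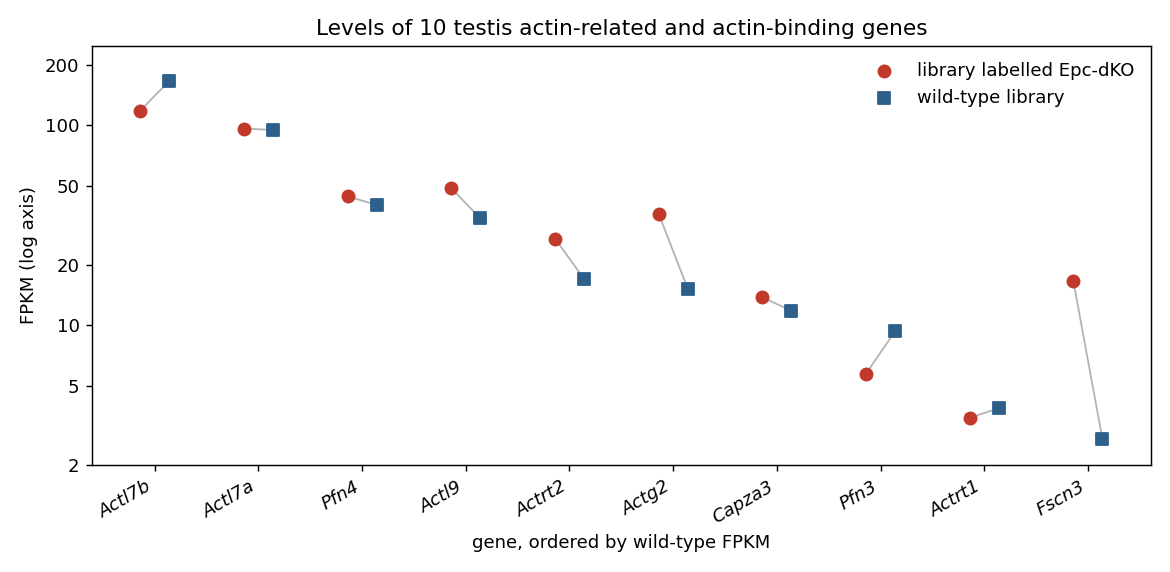
FPKM of each gene (log axis) in the library labelled Epc-dKO (circles) and in the wild-type library (squares), 1 library per genotype, ordered by wild-type FPKM. Actl7b and Actl7a lie highest in both libraries, and the steepest line joins the Fscn3 values of 16.6 in the library labelled Epc-dKO and 2.70 in the wild-type library.

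The actin-related pair Actl7a and Actl7b held the highest levels. Actl7a encodes a theca protein that mice need to attach the acrosome and to fertilise. It had an FPKM of 96.5 in the library labelled Epc-dKO and 94.9 in the wild-type library, a log2 ratio of 0.02. These are nearly equal levels, from about 5161 fragments in the library labelled Epc-dKO and 4597 in the wild-type library. Its close relative Actl7b, which mouse spermatids need to form a normal sperm head and tail, had an FPKM of 118.7 in the library labelled Epc-dKO and 167 in the wild-type library. Its log2 ratio was -0.49, within 2-fold, and 84.5% of expressed genes had a higher one. Actl7b was the most abundant of the 10 genes in both libraries, at rank 272 in the library labelled Epc-dKO and rank 145 in the wild-type library among all genes. The FPKM of Actl7a was 0.813 times that of Actl7b in the library labelled Epc-dKO and 0.568 times in the wild-type library. In the RefSeq annotation the genes of this pair are next to each other on chromosome 4 and are transcribed from opposite strands, away from each other.

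Actl9, Actrt2 and Actrt1, the other actin-related genes of the group, spanned a wide range of levels. Actl9, whose protein works with that of Actl7a in anchoring the acrosome, had an FPKM of 48.4 in the library labelled Epc-dKO and 34.3 in the wild-type library (log2 ratio 0.48). Actrt2, for a theca protein, had 27.2 in the library labelled Epc-dKO and 17.1 in the wild-type library (log2 ratio 0.64), the third-highest log2 ratio of the 10 genes. Both genes were above their wild-type level without reaching 2-fold. The X-linked Actrt1, which mice also need for acrosome attachment, had 3.44 in the library labelled Epc-dKO and 3.85 in the wild-type library (log2 ratio -0.13). It was the lowest of the 10 genes in the library labelled Epc-dKO, and it rested on about 160 fragments there and 162 in the wild-type library. Together the 5 actin-related genes summed to an FPKM of 294 in the library labelled Epc-dKO and 317 in the wild-type library and did not share a direction.

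The bases before the starts of 6 of the genes are shown for the matches marked in them, and 3 of them, all actin-related genes, hold the same 8 letters. Of the 10 genes 8 matched a promoter in the RefSeq table, and Capza3 and Actg2 did not. Actrt2 and Pfn4 matched but are not shown. Each line gives the 120 bases before the annotated start, 5′ to 3′ on the strand of the gene, from RefSeq on GRCm38.p6. Capitals mark TGATGTCA or its reverse complement in Actl7a, Actl7b and Actl9, the start of the X-box (GTTGCC, any pair of letters, GG) in Actl7b and Actrt1, TGACG or its reverse complement in Pfn3, and the reverse complement of TATAAA in Fscn3. CCAAT, which also occurs in the line of Actl7b, is left unmarked.
Actl7a, chr4:56743302-56743421, plus strand: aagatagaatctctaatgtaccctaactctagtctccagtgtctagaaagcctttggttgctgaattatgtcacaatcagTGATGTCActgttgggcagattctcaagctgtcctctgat
Actl7b, chr4:56741426-56741545, minus strand: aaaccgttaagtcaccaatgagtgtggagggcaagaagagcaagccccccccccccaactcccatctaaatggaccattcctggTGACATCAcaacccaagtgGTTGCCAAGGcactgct
Actl9, chr17:33432779-33432898, plus strand: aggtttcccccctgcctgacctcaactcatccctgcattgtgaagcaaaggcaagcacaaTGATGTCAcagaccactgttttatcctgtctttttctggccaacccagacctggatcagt
Actrt1, chrX:46328887-46329006, plus strand: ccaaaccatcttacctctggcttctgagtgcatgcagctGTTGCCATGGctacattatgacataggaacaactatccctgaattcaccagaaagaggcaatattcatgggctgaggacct
Pfn3, chr13:55415233-55415352, minus strand: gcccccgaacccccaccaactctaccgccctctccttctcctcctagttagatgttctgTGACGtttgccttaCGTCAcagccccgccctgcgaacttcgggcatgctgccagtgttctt
Fscn3, chr6:28427781-28427900, plus strand: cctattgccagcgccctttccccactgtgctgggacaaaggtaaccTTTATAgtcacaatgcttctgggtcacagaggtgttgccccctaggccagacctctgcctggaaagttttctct

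Motifs were searched on both strands of windows of 300 bases, 250 before and 50 after each start, in the 8 matched genes and in all 32851 promoters of the table. The full cAMP response element TGACGTCA, the site of CREM, a transcriptional activator of round spermatids, was in 0 of the 8 windows and in 1.79% of all promoters. Its shorter form TGACG, which is also part of the full element, was in Pfn3 alone, at 2 places, and in 20.8% of all promoters. TATAAA was in Actl9 and Fscn3 and in 13.6% of all, and CCAAT was in Actl7b and Pfn4 and in 37.4%. The X-box, the site of RFX factors, was in 0 of the 8 windows and in 0.298% of all. A pair of further strings was picked after the letters of these windows had been read. TGATGTCA was in Actl7a, Actl7b and Actl9 and in 3.62% of all promoters. It began 40 bases before the start of Actl7a, 60 before that of Actl9 and, on the opposite strand, 36 before that of Actl7b. The start of the X-box was in Actl7b and Actrt1 and in 2.25% of all promoters. A match describes letters only, and the window of Fscn3, which was called higher, held neither of these added strings.

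Fscn3 had the highest log2 ratio of the 10 genes. It encodes a testis fascin, a relative of the proteins that bundle actin filaments. Its FPKM was 16.6 in the library labelled Epc-dKO and 2.70 in the wild-type library. This is an FPKM ratio of 6.15 and a log2 ratio of 2.25, at rank 63 from the top among the 10438 expressed genes. The lowest of the 10 genes in the wild-type library thus lay above Capza3, Pfn3 and Actrt1 in the library labelled Epc-dKO. Fscn1, the widespread fascin, had 8.50 in the library labelled Epc-dKO and 9.42 in the wild-type library (log2 ratio -0.13), so that the FPKM of Fscn3 was 1.96 times that of Fscn1 in the library labelled Epc-dKO and 0.287 times in the wild-type library. The fixed rule for nearest genes leaves out symbols of small RNAs, predicted genes and uncharacterised genes. By this rule Cntfr was nearest to Fscn3, with an FPKM of 17.1 in the library labelled Epc-dKO and 3.24 in the wild-type library. Next was Abi3, with 13.9 in the library labelled Epc-dKO and 3.05 in the wild-type library. Likeness here is the distance between log2(FPKM + 1) values over 2 libraries, 0.20 for Cntfr and 0.27 for Abi3.

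Actg2 was the other gene called higher. It encodes smooth muscle gamma-actin, the only conventional actin among the 10 genes, and a transcript of it is also known from postmeiotic germ cells of mice. Its FPKM was 36.2 in the library labelled Epc-dKO and 15.3 in the wild-type library, an FPKM ratio of 2.37 and a log2 ratio of 1.19, at rank 196 from the top. The other smooth muscle and peritubular markers lay mostly below their wild-type level. Of the 16 listed without Actg2, 9 were expressed and 7 of these had log2 ratios below 0, with a median of -0.58. None was called higher and 1, the filamin gene Flna, was called lower. The summed FPKM of all 16 was 24.5 in the library labelled Epc-dKO and 39.6 in the wild-type library. Flna weighs most in that difference, with 5.28 in the library labelled Epc-dKO and 12.2 in the wild-type library. The 2 expressed markers with log2 ratios above 0 were Mylk and Actn1. They had 5.87 and 2.91 in the library labelled Epc-dKO, against 5.52 and 1.98 in the wild-type library. Acta2, for the smooth muscle alpha-actin that marks peritubular cells, had 3.68 in the library labelled Epc-dKO and 6.00 in the wild-type library (log2 ratio -0.58), and Myh11, for smooth muscle myosin, had 1.56 in the library labelled Epc-dKO and 3.07 in the wild-type library (-0.67). The other 7 of the 16, under the minimum level, included Des, for the muscle filament protein desmin, at 0.176 in the library labelled Epc-dKO and 0.499 in the wild-type library. Itga8, also among them, had 0.193 in the library labelled Epc-dKO and 0.169 in the wild-type library. In bulk samples, fewer cells of a type and less RNA per cell cannot be told apart. The FPKM of Actg2 was 9.82 times that of Acta2 in the library labelled Epc-dKO and 2.54 times in the wild-type library. No window of 50 bases in the longest GENCODE transcript of Actg2 occurred exactly in a transcript of another gene. This covers exact matches only. Whether fragments of other actin genes were placed on Actg2 with mismatches was not tested, and the aligner is not given. Nearest to Actg2 were Ccdc91 (FPKM 35.8 in the library labelled Epc-dKO and 15.3 in the wild-type library, distance 0.02) and Spata3 (32.0 in the library labelled Epc-dKO and 13.7 in the wild-type library, distance 0.23). Spata3 is also 1 of the 18 late spermatid markers described below, of which 9 were called higher, beside 2.75% of all expressed genes. It was picked by these same FPKM values, so its nearness gives no further information on Actg2.

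**Figure D2:**
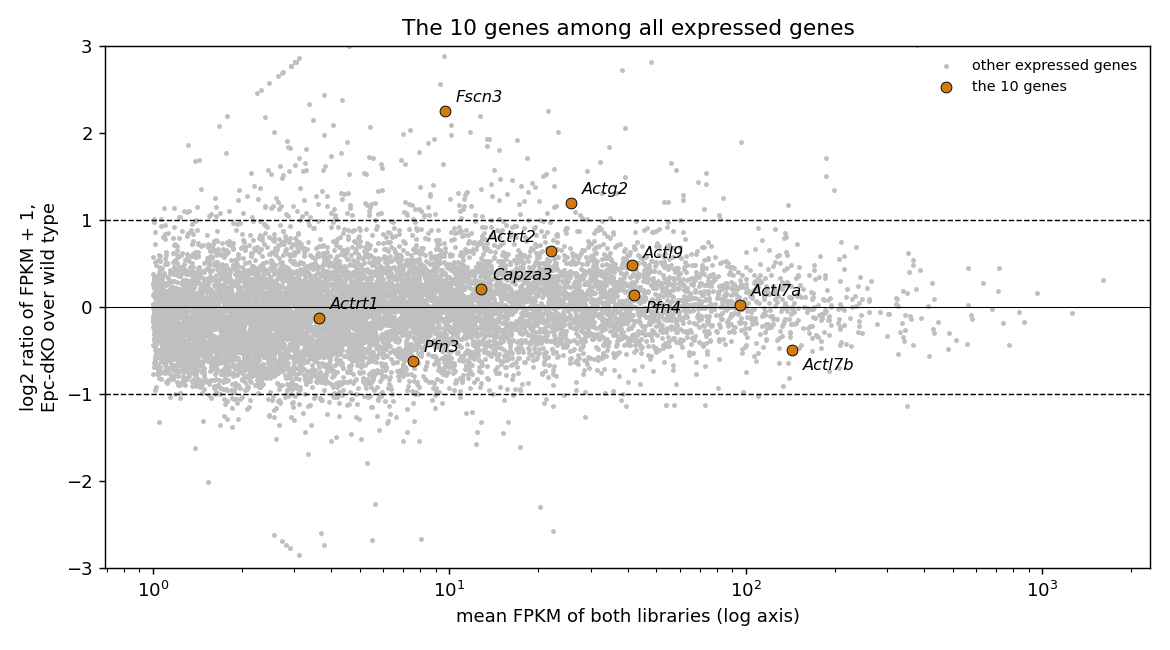
Log2 ratio of FPKM + 1 against the mean FPKM of both libraries (log axis) for expressed genes (grey points) and the 10 genes (orange, labelled); dashed lines mark 2-fold, and 82 of the 10438 expressed genes lie beyond the plotted range of 3 in either direction. Fscn3 and Actg2 lie above the upper dashed line, and the other 8 genes lie between the lines.

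The profilins and the capping gene stayed within 2-fold. Profilins bind actin monomers and feed them to growing filaments. Pfn4, for a profilin of the manchette and the forming acrosome, had an FPKM of 44.2 in the library labelled Epc-dKO and 40.0 in the wild-type library (log2 ratio 0.14). Pfn3, which mice need to form a normal acrosome, had 5.73 in the library labelled Epc-dKO and 9.33 in the wild-type library, a log2 ratio of -0.62, which was the lowest ratio of the 10 genes. The spermatid profilins thus differed in direction, and the FPKM of Pfn4 was 7.72 times that of Pfn3 in the library labelled Epc-dKO and 4.29 times in the wild-type library. Pfn3 has the shortest transcript of the 10 genes, 545 nt, and rested on about 80 fragments in the library labelled Epc-dKO and 118 in the wild-type library. These 2 numbers are extrapolated, since the depth was fitted on transcripts of at least 600 nt. The widely expressed Pfn1 and Pfn2 had 17.5 and 19.3 in the library labelled Epc-dKO, against 21.4 and 11.1 in the wild-type library, and were within 2-fold. Capza3 encodes the germ cell alpha subunit of capping protein, which closes the fast-growing end of filaments and is needed in mice to shape sperm. It had 13.8 in the library labelled Epc-dKO and 11.8 in the wild-type library (log2 ratio 0.21). Its level was 0.283 times that of the widespread subunit gene Capza1 in the library labelled Epc-dKO and 0.315 times in the wild-type library.

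The precision that counting alone gives was approximated from the fragments behind each value. Intervals are exact Clopper-Pearson 95% limits on the share of fragments, turned into FPKM ratios of the library labelled Epc-dKO over the wild-type library. They cover counting error only: PCR copies are not independent molecules, and the spread between animals has no part in them. The FPKM ratio of Fscn3 was 6.15 with limits of 5.23 and 7.26, from about 1154 fragments in the library labelled Epc-dKO and 170 in the wild-type library. That of Actg2 was 2.37, with limits of 2.16 and 2.60. For Actl7b the ratio was 0.710 with limits of 0.686 and 0.735, and for Pfn3 it was 0.614 with the much wider limits of 0.456 and 0.822. The limits of Actl7a (0.977 and 1.06) and Actrt1 (0.714 and 1.12) lay on both sides of 1. The limits of the other 8 genes lay on 1 side of 1. None of these limits bears on how mice of 1 genotype vary.

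**Figure D3:**
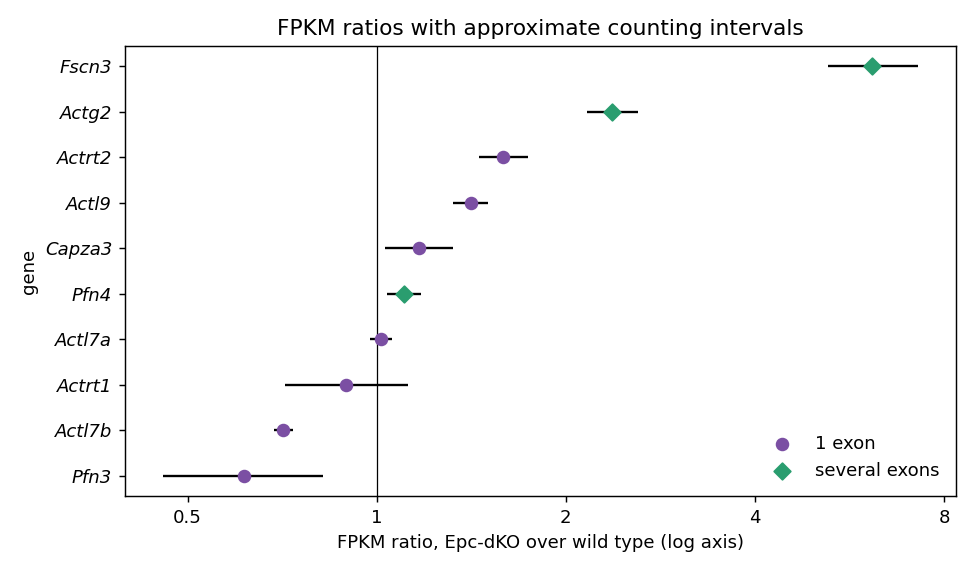
FPKM ratio of the library labelled Epc-dKO over the wild-type library (log axis) for each of the 10 genes, with approximate 95% limits from counting error alone (lines); circles are genes with 1 exon and diamonds are genes with several. Fscn3 at 6.15 and Actg2 at 2.37 are both among the genes with several exons, and Actl7a and Actrt1 have limits on both sides of 1.

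The number of exons, which played no part in the choice, differed within the group. Actl7a, Actl7b, Actl9, Actrt1, Actrt2, Capza3 and Pfn3 have a single exon in GENCODE M21, with transcripts of 545 to 1513 nt. Fscn3 has 7 exons, Actg2 has 9 and the transcripts of Pfn4 have 3 to 5. Both genes called higher were thus among the 3 with several exons, of which Pfn4 was within 2-fold. With so few genes this is a description. The share of genes with several exons among all expressed genes was not computed, so nothing is read from it. The 10 genes lie on chromosomes 4, 6, 12, 13, 17 and X, and Capza3, Fscn3 and Actg2 share chromosome 6.

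Other genes of the actin cytoskeleton, in 7 fixed lists, were mostly within 2-fold. Of 15 expressed actins and actin-related genes, 1 was called higher and 0 lower, with a median log2 ratio of -0.04. The gene called higher was 4921517D21Rik, an older symbol of the actin-like gene Actl11, with an FPKM of 74.2 in the library labelled Epc-dKO and 31.6 in the wild-type library (log2 ratio 1.21). Arpm1, an older symbol of Actrt3 and so a relative of Actrt1 and Actrt2, had 4.11 in the library labelled Epc-dKO and 1.68 in the wild-type library (log2 ratio 0.93); it was named outside the rule and passed 2-fold with pseudocounts of 0.1 and 0.5 and on the TPM scale. Actg1, for cytoplasmic gamma-actin, was the most abundant of that list, with 180 in the library labelled Epc-dKO and 208 in the wild-type library. Actr1a, for the main dynactin filament protein, had 71.8 in the library labelled Epc-dKO and 86.9 in the wild-type library.

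Among genes of filament capping, severing and turnover, none of 22 expressed was called in either direction, and the median was 0.02. This count of 0 depends on the setting. With a pseudocount of 0.1, 1 of the 22 was lower, beside 652 of all 10438 expressed genes. On the TPM scale, where 33 genes of the list pass the minimum, 5 were lower and 1 higher. Beside them stand 1054 lower and 545 higher of all 15151 genes that pass on that scale. The kinase gene Tesk1, whose product acts on cofilin, had 314 in the library labelled Epc-dKO and 377 in the wild-type library, and the cofilin phosphatase gene Ssh2 had 91.5 in the library labelled Epc-dKO and 96.3 in the wild-type library. Of 7 expressed monomer-binding genes 1 was called higher, Cap2, for a cyclase-associated protein that recycles actin monomers, with 6.79 in the library labelled Epc-dKO and 2.44 in the wild-type library (log2 ratio 1.18). Tmsb10, for a thymosin that holds monomers, had 155 in the library labelled Epc-dKO and 197 in the wild-type library and Cap1 had 34.6 in the library labelled Epc-dKO and 38.2 in the wild-type library. The median of this list was -0.28.

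Of 15 expressed bundling and cross-linking genes 1 was called lower and 0 higher, with a median of -0.36. With a pseudocount of 0.1 and on the TPM scale 3 were lower, beside 652 of 10438 and 1054 of 15151 expressed genes. The gene called lower was Flna, at an FPKM of 5.28 in the library labelled Epc-dKO and 12.2 in the wild-type library (log2 ratio -1.07), while the membrane linker gene Rdx had 25.5 in the library labelled Epc-dKO and 20.5 in the wild-type library. None of 23 expressed nucleation genes was called (median -0.10; 1 of 31 was lower on the TPM scale), among them the Arp2/3 subunit genes Arpc2, with 37.9 in the library labelled Epc-dKO and 41.5 in the wild-type library, and Arpc1a, with 20.8 in the library labelled Epc-dKO and 33.4 in the wild-type library. Unconventional and nonmuscle myosin genes had 1 of 16 called higher and 1 lower, with a median of -0.12. The first was Myo7a, with 9.43 in the library labelled Epc-dKO and 2.34 in the wild-type library (log2 ratio 1.64), and the other was the nonmuscle myosin gene Myh9, with 2.05 in the library labelled Epc-dKO and 5.29 in the wild-type library (-1.04). The abundant Myh10 and Myo9a had 38.4 and 37.6 in the library labelled Epc-dKO, against 33.1 and 33.3 in the wild-type library.

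The list of partners of the perinuclear theca and the acroplaxome, the surroundings in which several of the 10 proteins work, had 0 of 21 expressed genes called and a median of 0.06. With pseudocounts of 0.1 and 0.5 and on the TPM scale 1 of them, Arpm1, was called higher. The list is broad and also holds genes of other structures. One is the manchette gene Rimbp3, with 176 in the library labelled Epc-dKO and 239 in the wild-type library (log2 ratio -0.44). Cylc2, for the theca protein cylicin, had 89.2 in the library labelled Epc-dKO and 55.0 in the wild-type library (log2 ratio 0.69). These lists share a few genes with each other. Their counts are set beside 2.75% called higher and 1.88% called lower among all expressed genes, and no list is singled out from them. At the other settings named here the counts over all expressed genes were larger. They were 433 higher and 652 lower of 10438 with a pseudocount of 0.1, and 346 and 364 with 0.5. On the TPM scale they were 545 and 1054 of 15151.

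**Figure D4:**
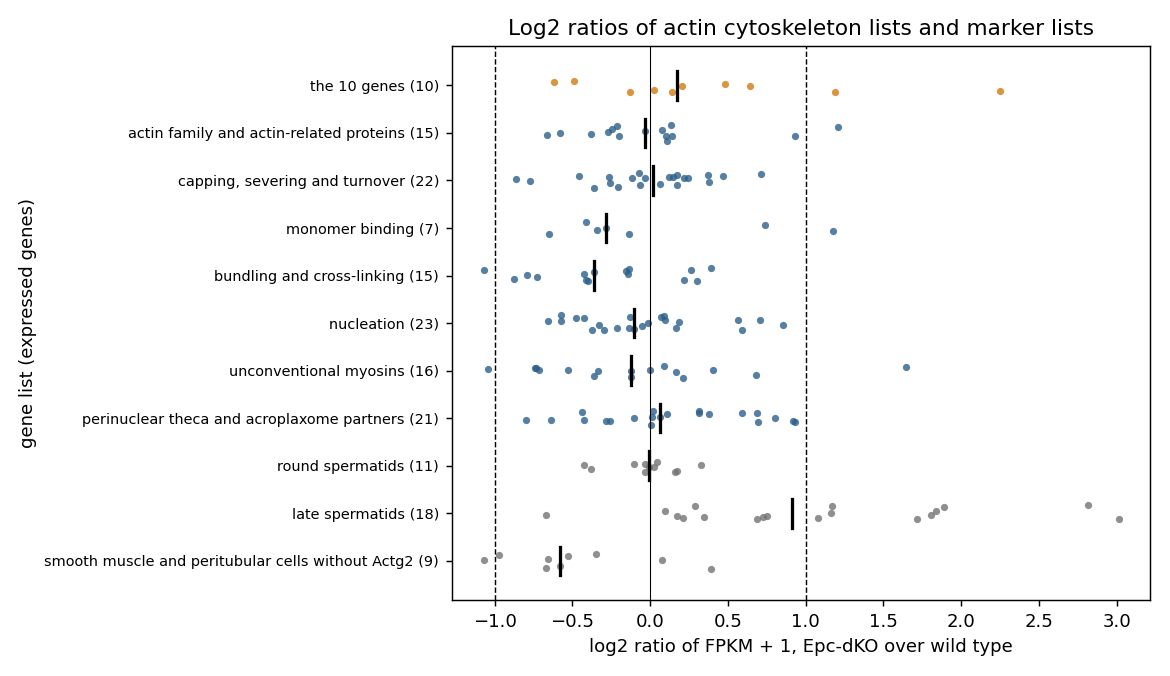
Log2 ratios of FPKM + 1, the library labelled Epc-dKO over the wild-type library, for expressed genes (points) of the 10-gene group, of 7 actin cytoskeleton lists and of 3 marker lists, with the number of genes in brackets; black bars are medians and dashed lines mark 2-fold. The late spermatid markers have a median of 0.91 and the smooth muscle markers without Actg2 one of -0.58, while the medians of the actin lists lie between -0.36 and 0.06.

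Markers of other germ cell stages and of other testis cells also differed between the libraries. The called counts below stand beside 2.75% higher and 1.88% lower among all expressed genes. Of 18 late spermatid markers, all expressed, 9 were called higher and 0 lower, and the median log2 ratio was 0.91. Their summed FPKM was 2480 in the library labelled Epc-dKO and 1158 in the wild-type library, and none was near 0 in either. Prm2 weighs most in that difference, with 675 in the library labelled Epc-dKO and 82.8 in the wild-type library. The other 9 markers lay within 2-fold, and 1 of the 18, Hspb9, had a log2 ratio below 0. Round spermatid markers had a median of -0.01 and summed to 700.1 in the library labelled Epc-dKO and 708 in the wild-type library. Spermatocyte markers had 0 called higher and 2 lower of 11, spermatogonial markers 0 and 2 of 11, and Leydig cell markers 0 and 2 of 8, with medians of -0.24, -0.74 and -0.08. Summed FPKM was 121 for spermatocytes, 20.7 for spermatogonia and 28.5 for Leydig cells in the library labelled Epc-dKO, against 166, 43.7 and 42.2 in the wild-type library. Single genes weigh heavily in these sums. Ccna1 (spermatocytes), Insl3 and Ptgds (Leydig cells) had 61.2, 6.79 and 3.09 in the library labelled Epc-dKO, against 87.5, 14.9 and 9.29. Log2 ratios were above 0 for 2 of the 11 spermatocyte markers, 0 of the 11 spermatogonial markers and 3 of the 8 Leydig cell markers. Sertoli cell markers, of which 2 were expressed, summed to 8.42 in the library labelled Epc-dKO and 12.6 in the wild-type library, with Sox9, Wt1 and Amh under 1 in both. Markers of stroma, endothelium and blood, also with 2 expressed, summed to 5.72 in the library labelled Epc-dKO and 9.93 in the wild-type library, and the haemoglobin genes Hba-a1 and Hbb-b1 were listed at 0 in both. Fscn3 and Actg2 were higher in the same library as most late spermatid markers. With 1 library per genotype this holds for every gene called higher. The other 8 of the 10 genes lay within 2-fold. The part of late spermatids in any of these values was not tested.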

How the data were processed

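The authors deposited 1 table of FPKM per gene with 1 column per library; the mm9 genome and Cufflinks 2.2.1 are named, per the submitters' processing notes. Libraries were directional and PCR-amplified, per the labels' protocols. The aligner, annotation and strand setting: not given in the sources used here. A row without a gene was left out. Libraries were grouped by genotype label. Log2 ratios used a pseudocount of 1, a minimum mean FPKM of 1 and a 2-fold rule. The calling was run on simulated data with assumed noise and 4-fold changes planted in genes of higher wild-type level than Fscn3. That run checks the code and cannot show how reliable calls near 2-fold or of low genes are.

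Depth is an approximation. Of 4472 genes with both FPKM above 0 and under 0.3, 54.0% had a ratio between libraries that was 0.905 times a ratio of whole numbers up to 12 (relative tolerance 2e-05), against at most 0.0671% at 4 other trial values. The FPKM of single fragments in 77 genes with 1 transcript gave the totals, after taking 204 nt off each GENCODE M21 length. Of these genes 76.6% lay within 5% of that fit. Only transcripts of at least 600 nt, with FPKM times length in a preset range, were kept, which raises this share. Pfn3, at 545 nt, is shorter than the fitted transcripts, so its fragments and limits are extrapolated. If the authors scaled the libraries further, these are scaled totals.

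Named were the 10 genes, Epc1 and Epc2, in each actin list the 2 most abundant genes and up to 4 past 2-fold, and the 2 genes nearest to each called gene. Symbols of small RNAs, predicted genes and uncharacterised genes were left out of the nearest genes. Relatives of the 10 genes and single markers were named outside this rule. The members and lists were chosen with earlier results of these data known. Alternatives were other pseudocounts, rescalings, minimum levels and fold rules. Proteins were not compared here. Software was Matplotlib 3.10.9, SciPy 1.17.1, pandas 2.3.3, NumPy 2.4.6 and Python 3.11.15.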

Additional observations from a re-analysis of the deposited data

How the results depend on the processing

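Under pseudocounts of 0.1 and 0.5 and 4 rescalings of the libraries, all 60 recomputed log2 ratios of the 10 genes stayed on their side of 2-fold. Fscn3 lay between 2.23 and 2.58, Actg2 between 1.17 and 1.24, and Actl7a between -0.01 and 0.08. The ratio nearest to 2-fold, that of Actg2, was 1.19 in the report, so a crossing was unlikely from the start. The outcome therefore says little on how reliable the calls are. The count of higher genes among the 10 was 1 under a 4-fold rule, and the count of lower ones was 1 under a 1.5-fold rule. The counts over all expressed genes moved more: 433 higher and 652 lower with a pseudocount of 0.1, 364 lower with 0.5, 545 and 1054 on the TPM scale (385 and 627 over the 10438 genes of the report, an alternative chosen after seeing the data), 166 and 105 with a minimum mean FPKM of 5, 76 and 59 under the 4-fold rule and 837 and 1127 under the 1.5-fold rule, against 287 and 196 in the report. Fewer genes pass the higher minimum and the stricter rule, and more pass the looser rule; smaller pseudocounts, and the larger values of the TPM scale, weigh the pseudocount less. Of 140 recomputed counts of the actin lists, 105 were within 1.5 times the reported count and 35 were not. Counts of 0 or 1 in these lists are therefore sensitive to the setting: on the TPM scale the capping list had 5 lower and 1 higher instead of 0, the bundling list 3 lower instead of 1, the theca list 1 higher instead of 0 and the actin family 2 higher and 1 lower instead of 1 and 0. Over the 10438 genes of the report that scale gave 1 lower, 3 lower, 1 higher and 2 higher. Actl7a was just below 0 on the TPM scale and without the 100 highest genes, so that 6 of the 10 genes lay above 0 there. No rescaling moved the median of all genes by over 0.1. No paired analysis was possible because there was 1 library of each genotype. Depth limits Pfn3 and Actrt1 most.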
